A study of Mus musculus with 8 samples.

Results

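The genes described here are the nuclear genes of respiratory complexes II to V and cytochrome c. They were taken from the count table by symbol: Sdha, Sdhb, Sdhc, Sdhd, Cyc1, Cycs, and every symbol starting with Uqcr, with Cox and a digit between 4 and 8, or with Atp5. This gave 50 of 25240 genes, of which 4 belong to complex II, 9 to complex III, 19 to complex IV and 17 to complex V, with Cycs alone as the mobile carrier. The 45 genes with enough counts were tested. Cox4i2, Cox6a2, Cox7b2, Cox8b and Cox8c were too low, and Cox7c-ps1 is a pseudogene that shares the symbol pattern. Subunits encoded in mitochondrial DNA were not analysed here.

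Electrons from the oxidation of fuels enter the inner mitochondrial membrane at complex I or at complex II (succinate dehydrogenase), pass through ubiquinone to complex III and through cytochrome c to complex IV, where oxygen is reduced. Complexes III and IV pump protons as they work, and complex V (ATP synthase) lets the protons return through a ring of c subunits whose rotation drives the making of ATP. Proximal tubule cells of the kidney depend on this route, since they take back most of the filtered solutes and make most of their ATP in mitochondria.

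RNA was sequenced from 4 libraries of Tomato-positive and 4 libraries of Tomato-negative kidney cells. All 8 came from p16-tdTomato mice, whose genotype joins p16, a cell cycle inhibitor used as a marker of senescence, with the red fluorescent protein tdTomato. All had chronic kidney disease, which was brought on with adenine in the diet, and every library is labelled as proximal tubular epithelial cells. Animals without the disease were not analysed here, and the sources used here do not give the build of the reporter, the sort, or the age and sex of the animals. Each Tomato-positive library shares an identifier with a Tomato-negative one (CKD523_2, CKD523_3, CKD627_1 and CKD627_2), and lists of 4 values below follow that order.

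Libraries held between 13474439 and 19886202 counts, and 1 CPM (counts scaled to the size of the library, with TMM factors) was worth 13.0 to 20.6 counts. In Tomato-positive libraries 15008 to 15838 genes were detected, against 16054 to 17043 in Tomato-negative libraries. The reporter stood at 3227 to 4188 CPM in Tomato-positive and at 87.3 to 152 CPM in Tomato-negative libraries, and so was higher in every library labelled positive than in any labelled negative. Of 19 tested proximal tubule markers, 9 fell in Tomato-positive cells in the paired edgeR fit described below and 0 rose. In that fit 3.81% of all tested genes fell and 3.82% rose. Without pairing 2 markers fell. At an unadjusted p under 0.05 in the paired fit 12 were lower and 1 higher, and paired DESeq2 called 11 lower and 1 higher. The markers summed to 4279 to 12416 CPM in Tomato-positive and 6785 to 29505 CPM in Tomato-negative libraries. Their paired log2 differences ran from -8.23 to 0.70, with a median of -0.76. Slc22a7, an organic anion transporter of the proximal tubule, was singled out after its values were seen. It was at 0 counts in every Tomato-positive library, and such a gene can pass the count filter through the Tomato-negative libraries alone.

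Transcripts of all the complexes were lower in Tomato-positive cells. The members summed to 11268, 10643, 10031 and 10554 CPM in the Tomato-positive libraries, against 16065, 18504, 19118 and 15566 CPM in the Tomato-negative libraries. The highest Tomato-positive sum lay below the lowest Tomato-negative sum. As a share of all counts the members took 1.04 to 1.09% of Tomato-positive and 1.51 to 2.01% of Tomato-negative libraries. In libraries made from many cells, fewer cells of a type and less RNA per cell cannot be told apart.

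The log2 difference (Tomato-positive minus Tomato-negative) was below 0 for all 45 tested members in both fits described here (in the paired fit, 49.5% of all tested genes), with an unpaired median of -0.81, a 1.75-fold lower level, against 0.01 over all 14284 tested genes. With edgeR's quasi-likelihood test and the groups compared without pairing, 8 members fell and 0 rose at an adjusted p under 0.05, where 0.231% of all tested genes fell and 0.364% rose. With each identifier as a block (the paired fit), 38 members fell and 0 rose, where 3.81% of all tested genes fell. At an unadjusted p under 0.05, 42 members were lower unpaired, against 8.98% of all tested genes, and 43 paired, against 12.3%, and 0 were higher in either. DESeq2 called 40 lower in both designs, where it called 3.62% of all tested genes lower unpaired and 7.39% paired. Limma-voom called 11 lower, against 0.28% of all tested genes, and neither tool called any member higher.

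The separation did not rest on a few members. In 44 of 45 the level was lower in all 4 pairs, against 17.6% of all tested genes, and in 39 of 45 every Tomato-positive library lay below every Tomato-negative library, against 6.48% of all tested genes. In 0 members every Tomato-positive library lay above every Tomato-negative one, against 6.74%. The 6 with overlapping groups were Atp5g2, Atp5l, Cox6b2, Cox7a1, Cox7a2l and Cox7c. From the lower to the upper quartile the members spanned -0.90 to -0.66 in the paired fit, against -0.29 to 0.30 for all tested genes.

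The number of calls depended on single libraries, for the members and for all genes. The unpaired count of 8 was 1 without the Tomato-negative library CKD627_2 and 0 without any other single library. The paired count of 38 was 20 without the pair CKD523_2, 3 without CKD523_3, 37 without CKD627_1 and 7 without CKD627_2. Over all tested genes the 33 unpaired calls of a lower level became 0 to 5 without any 1 library. The 544 paired ones became 252 without CKD523_2, 102 without CKD523_3, 663 without CKD627_1 and 198 without CKD627_2. In all of these fits, paired and unpaired, the medians stayed between -0.73 and -0.62 for complex II, -0.92 and -0.67 for complex III, -0.95 and -0.68 for complex IV and -0.83 and -0.61 for complex V. The Tomato-negative library CKD627_1 held the highest Tomato-negative level for 35 of the 45 tested members.

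**Figure D1:**
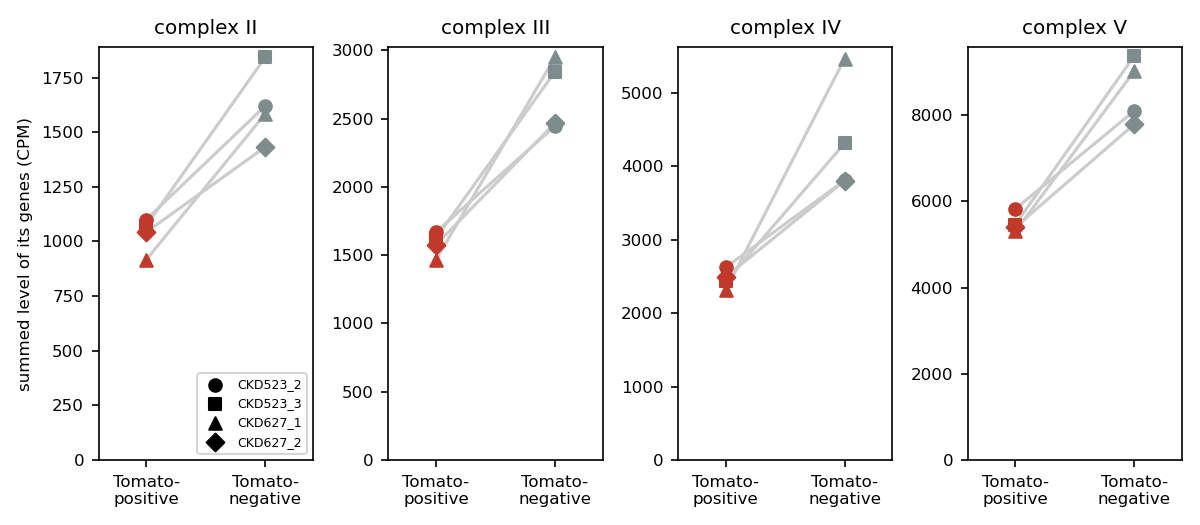
Summed level in CPM of the genes of each complex, with Tomato-positive libraries in red on the left and Tomato-negative libraries in grey on the right of each panel; grey lines join libraries with the same identifier, whose symbol is given in the key. In each panel every red point lies below every grey point, and the Tomato-negative library CKD627_1 stands highest for complexes III and IV.

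Complex II oxidises succinate and feeds the electrons to ubiquinone, and belongs to both the respiratory chain and the tricarboxylic acid cycle. All 4 of its genes were lower in every Tomato-positive library than in any Tomato-negative one, and the median difference was -0.66. Sdhb, the iron-sulfur subunit that hands electrons on inside the complex, had 153, 165, 114 and 152 CPM in the Tomato-positive libraries, against 269.5, 297, 291 and 232 CPM in the Tomato-negative libraries. The Tomato-positive library CKD627_1 was the lowest of the 8. The difference of -0.90 ± 0.15 (log2 ± SE; edgeR adjusted p = 0.0473) made Sdhb the only complex II gene to fall without pairing, and in the paired fit the adjusted p was 0.0119. Sdhb lies on chromosome 4, 140961203 to 140979193, plus strand of mm10.

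The other 3 subunits fell in the paired fit alone. Sdha, the flavoprotein that binds succinate, had 536, 547, 434 and 516 CPM in the Tomato-positive libraries, against 776, 892, 663 and 659 CPM in the Tomato-negative libraries (log2 -0.56 ± 0.16; edgeR adjusted p = 0.12, 0.0375 paired). Sdhc and Sdhd anchor the complex in the membrane. Sdhc averaged 196 ± 18.1 CPM in Tomato-positive and 316 ± 37.6 CPM in Tomato-negative cells (SD, n = 4 each; log2 -0.69 ± 0.14; edgeR adjusted p = 0.0618, 0.02 paired). For Sdhd the averages were 183 ± 7.91 CPM in Tomato-positive and 284 ± 27.0 CPM in Tomato-negative cells (SD, n = 4 each; log2 -0.64 ± 0.12; edgeR adjusted p = 0.0603, 0.0251 paired).

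Complex III moves electrons from ubiquinol to cytochrome c. Its 9 genes were all lower in every Tomato-positive library than in any Tomato-negative one, with a median difference of -0.81. All 9 fell in the paired fit, and Uqcr10, Uqcr11 and Uqcrfs1 also fell without pairing. The 4 core and redox subunits had a median of -0.67 and the 5 other subunits one of -0.86.

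Uqcrfs1, the Rieske iron-sulfur protein that takes the first electron from ubiquinol, had 217, 212, 222 and 200.2 CPM in the Tomato-positive libraries, against 339, 414, 439 and 348 CPM in the Tomato-negative libraries. The 4 Tomato-positive values lay close together and well below the others. The difference was -0.86 ± 0.14 (edgeR adjusted p = 0.0421, 0.00899 paired). Uqcr11, a small subunit without a redox centre, had 79.0, 64.9, 62.2 and 57.8 CPM in the Tomato-positive libraries, against 108, 134, 170.2 and 117 CPM in the Tomato-negative libraries. This was the largest difference within complex III, at -1.003 ± 0.17 (edgeR adjusted p = 0.0485, 0.0136 paired), and the gap was widest in pair CKD627_1. Uqcr10, another small subunit, had 139.5, 139.7, 136 and 143 CPM in the Tomato-positive libraries, against 205, 229, 247 and 224 CPM in the Tomato-negative libraries (log2 -0.70 ± 0.11; edgeR adjusted p = 0.0473, 0.0154 paired). The SD over its 4 Tomato-positive libraries was 2.87 CPM. In mm10 Uqcrfs1 lies on chromosome 13, 30540308 to 30545362, minus strand, Uqcr11 on chromosome 10, 80402997 to 80406830, minus strand and Uqcr10 on chromosome 11, 4701973 to 4704342, minus strand.

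The core proteins and cytochrome c1 had smaller log2 differences than Uqcr11. Uqcrc1, a large core subunit facing the matrix, averaged 299 ± 34.1 CPM in Tomato-positive and 477 ± 39.7 CPM in Tomato-negative cells (SD, n = 4 each; log2 -0.68 ± 0.14; edgeR adjusted p = 0.0619, 0.0256 paired). Its partner Uqcrc2 averaged 255 ± 14.995 CPM in Tomato-positive and 391 ± 69.0 CPM in Tomato-negative cells (SD, n = 4 each; log2 -0.62 ± 0.16; edgeR adjusted p = 0.0988, 0.0296 paired). Its exons overlap those of Pdzd9 on the opposite strand, and the sources used here do not say whether reads were counted by strand. Cyc1, the heme protein that passes electrons to cytochrome c, had 255, 251, 225 and 253 CPM in the Tomato-positive libraries, against 368, 436, 376 and 378 CPM in the Tomato-negative libraries (log2 -0.66 ± 0.12; edgeR adjusted p = 0.0554, 0.0188 paired).

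Cycs, the small carrier between complexes III and IV that also starts caspase activation when it leaves the mitochondrion, had 51.7, 53.3, 37.0 and 43.9 CPM in the Tomato-positive libraries, against 89.3, 126, 93.1 and 72.0 CPM in the Tomato-negative libraries. No Tomato-positive value reached the lowest Tomato-negative one. Its difference of -1.03 ± 0.20 did not pass without pairing (edgeR adjusted p = 0.0587) and passed with it (adjusted p = 0.00887). Of the 50-base words in its transcripts, 26.2% also occur in transcripts of 76 other genes, and its value is uncertain.

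Complex IV, cytochrome c oxidase, had the most members. Of 14 tested genes 2 fell without pairing, Cox7a2 and Cox8a, and 10 fell in the paired fit. The median difference was -0.84, and the range in the paired fit ran from -1.44 for the pseudogene Cox7c-ps1 to -0.25 for Cox7c. Without the pseudogene the lowest was -1.26 for Cox6b2.

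Cox7a2, the widely expressed form of subunit 7a at the edge of the complex, had 131, 133, 100.4 and 119 CPM in the Tomato-positive libraries, against 217, 268, 317 and 237 CPM in the Tomato-negative libraries. The highest Tomato-positive value was far below the lowest Tomato-negative one, and the mean level was 2.15-fold lower (log2 -1.10 ± 0.16; edgeR adjusted p = 0.0387, 0.00902 paired). Cox8a, a very small subunit encoded in the nucleus, had 352, 349, 324 and 350.4 CPM in the Tomato-positive libraries, against 509, 611, 635 and 541 CPM in the Tomato-negative libraries. It passed narrowly without pairing (log2 -0.74 ± 0.13; edgeR adjusted p = 0.0497, 0.0158 paired). In mm10 Cox7a2 lies on chromosome 9, 79755361 to 79759878, minus strand and Cox8a on chromosome 19, 7215153 to 7217616, minus strand.

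Cox4i1, the subunit through which ATP acts on the oxidase, had 613, 555, 487 and 581 CPM in the Tomato-positive libraries, against 892, 961, 1249 and 831 CPM in the Tomato-negative libraries (log2 -0.82 ± 0.17; edgeR adjusted p = 0.0619, 0.0256 paired). Cox5a, a subunit on the matrix side, averaged 165 ± 9.92 CPM in Tomato-positive and 279 ± 61.0 CPM in Tomato-negative cells (SD, n = 4 each; log2 -0.76 ± 0.17; edgeR adjusted p = 0.0696, 0.0181 paired). The zinc-binding subunit Cox5b averaged 31.4 ± 3.79 CPM in Tomato-positive and 55.4 ± 8.42 CPM in Tomato-negative cells (SD, n = 4 each; log2 -0.82 ± 0.15; edgeR adjusted p = 0.0582, 0.0264 paired). These 3 thus fell in the paired fit only. Cox6b1, which faces the space between the membranes and helps the oxidase to pair, had 195, 189, 186 and 181 CPM in the Tomato-positive libraries, against 306, 350.2, 488 and 307 CPM in the Tomato-negative libraries. It missed the threshold without pairing (log2 -0.95 ± 0.17; edgeR adjusted p = 0.0516) and fell with it (adjusted p = 0.0119). Cox6a1, the form of subunit 6a found outside muscle (log2 -0.81; edgeR paired adjusted p = 0.0256), and Cox7b, a small membrane subunit (log2 -0.86; edgeR paired adjusted p = 0.0149) fell in the paired fit as well.

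The oxidase has forms of several subunits that are used in some tissues only. Cox4i2, the form found in lung, reached at most 2.40 CPM in any library. Cox6a2, the form of heart and skeletal muscle, reached at most 1.35 CPM, while Cox7b2, Cox8b and Cox8c had 0 counts in all 8 libraries, where 3 counts stand for 0.146 to 0.231 CPM. Among the tested forms, Cox7a1, the muscle form of subunit 7a, had 6.62, 8.47, 13.8 and 8.40 CPM in the Tomato-positive libraries, against 11.1, 24.2, 28.5 and 17.2 CPM in the Tomato-negative libraries. The groups overlapped across pairs while each pair was lower in Tomato-positive cells, and Cox7a1 fell in the paired fit (log2 -1.09 ± 0.21, edgeR adjusted p = 0.0182, 0.14 unpaired). Cox6b2, known from testis, was low, at 2.15, 5.07, 2.57 and 1.16 CPM in the Tomato-positive libraries, against 7.64, 5.14, 6.80 and 4.14 CPM in the Tomato-negative libraries, and passed in neither fit (edgeR adjusted p = 0.258, 0.116 paired).

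Cox7a2l, which joins complexes III and IV into supercomplexes, had a smaller difference than its relative Cox7a2. It had 102, 109, 141 and 127 CPM in the Tomato-positive libraries, against 123, 141, 229 and 153 CPM in the Tomato-negative libraries. The groups overlapped, and the difference of -0.43 ± 0.21 passed in neither fit (edgeR adjusted p = 0.315, 0.108 paired). Cox7c, singled out after its values were seen, was the one tested gene that was not lower in every pair. It had 6.31, 8.24, 4.90 and 4.81 CPM in the Tomato-positive libraries, against 6.21, 4.95, 12.6 and 6.36 CPM in the Tomato-negative libraries. In pair CKD523_2 it had 82 counts in each library, with a log2 difference of 0.02. It was higher in Tomato-positive cells in pair CKD523_3 (143 against 77 counts) and lower in both CKD627 pairs. Of its 50-base words 22.1% occur in other transcripts, as do 55.7% of those of the pseudogene Cox7c-ps1, and their separate values are uncertain.

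**Figure D2:**
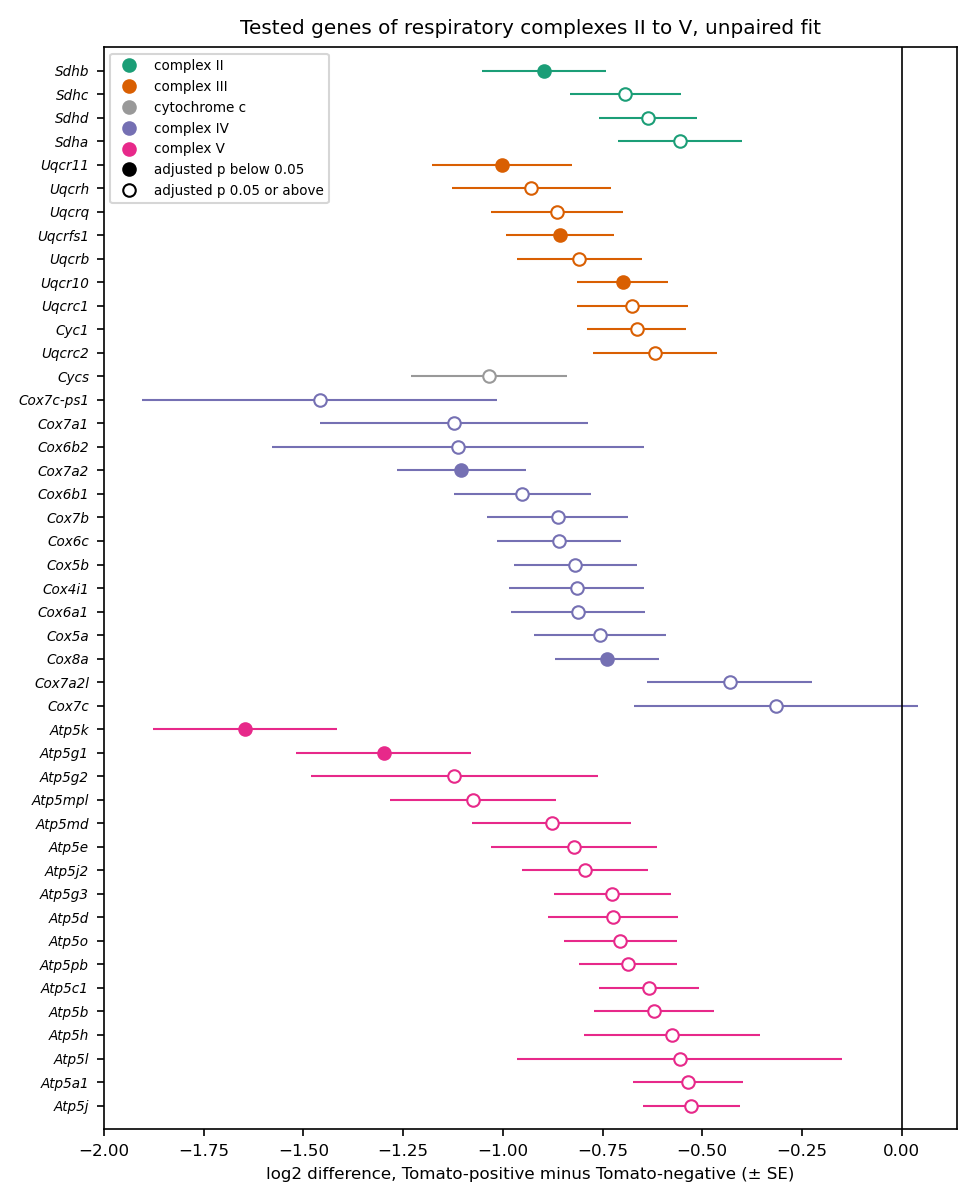
Log2 difference with its SE (horizontal bar) of each of the 45 tested genes in the unpaired edgeR fit, ordered within each complex, with filled points for the 8 genes at an adjusted p under 0.05 and open points for the rest. All points lie left of 0, from -1.65 for Atp5k to -0.31 for Cox7c.

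Complex V had both the largest and some of the smallest differences. Its 17 genes had a median of -0.72, with 2 genes that fell without pairing, Atp5k and Atp5g1, and 14 that fell with it. The 5 subunits of the catalytic part F1, counted with its rotating shaft, had a median of -0.63. The 12 subunits of the membrane part Fo and the outer stalk had one of -0.76.

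In the head, the catalytic subunit beta, Atp5b, had 2160.2, 2049.5, 1898 and 2010.0 CPM in the Tomato-positive libraries, against 3122, 3631, 2916 and 2814 CPM in the Tomato-negative libraries. Its companion alpha, Atp5a1, had 1522, 1461, 1547 and 1421 CPM in the Tomato-positive libraries, against 2029, 2405, 2174 and 2014 CPM in the Tomato-negative libraries. In both genes the groups were clear of each other, and both fell in the paired fit only (Atp5b log2 -0.62 ± 0.15, edgeR adjusted p = 0.0893, 0.0256 paired; Atp5a1 log2 -0.54 ± 0.14, adjusted p = 0.101, 0.0396 paired). Atp5c1, the rotating shaft gamma, averaged 289 ± 13.5 CPM in Tomato-positive and 448 ± 38.9 CPM in Tomato-negative cells (SD, n = 4 each; log2 -0.63 ± 0.13; edgeR adjusted p = 0.0603, 0.025 paired).

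Atp5k, subunit e, which holds the enzyme in dimers that shape the cristae, had the largest difference of all 45 genes. It had 29.4, 19.0, 23.6 and 20.4 CPM in the Tomato-positive libraries, against 70.2, 61.4, 103 and 54.5 CPM in the Tomato-negative libraries. The highest Tomato-positive value, in CKD523_2, was well below the lowest Tomato-negative one, in CKD627_2, and the level was 3.13-fold lower (log2 -1.65 ± 0.23; edgeR adjusted p = 0.0369, 0.00231 paired). Atp5k lies on chromosome 5, 108433244 to 108434448, minus strand of mm10. Atp5pb, the b subunit of the stalk that holds the head still, averaged 198 ± 5.78 CPM in Tomato-positive and 319 ± 30.6 CPM in Tomato-negative cells (SD, n = 4 each) and fell in the paired fit (log2 -0.69 ± 0.12; edgeR adjusted p = 0.0505, 0.0192 paired).

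The c ring is built from an identical protein that Atp5g1, Atp5g2 and Atp5g3 encode with different import sequences. Per kb of annotated exons Atp5g3 was the most abundant, at a mean of 187 CPM per kb in Tomato-positive and 309.8 CPM per kb in Tomato-negative cells, while Atp5g1 stood at 1.78 CPM per kb in Tomato-positive and 4.38 in Tomato-negative cells and Atp5g2 at 4.20 in Tomato-positive and 9.15 in Tomato-negative cells. Atp5g1 had 9.61, 8.41, 9.67 and 7.28 CPM in the Tomato-positive libraries, against 20.4, 19.3, 29.1 and 17.1 CPM in the Tomato-negative libraries. Every Tomato-positive value was under 10 CPM and every Tomato-negative value above it, and the level was 2.46-fold lower (log2 -1.30 ± 0.22; edgeR adjusted p = 0.0473, 0.00887 paired). Atp5g1 lies on chromosome 11, 96068852 to 96075670, minus strand of mm10, and 11.1% of its 50-base words occur in other transcripts. Atp5g3 had 473, 407, 356 and 398 CPM in the Tomato-positive libraries, against 639.9, 697, 764 and 602 CPM in the Tomato-negative libraries (log2 -0.73 ± 0.15; edgeR adjusted p = 0.0618, 0.023 paired). Atp5g2 had 7.23, 5.07, 8.20 and 7.67 CPM in the Tomato-positive libraries, against 16.2, 8.03, 25.6 and 11.5 CPM in the Tomato-negative libraries, with overlapping groups, and fell in the paired fit (log2 -1.02 ± 0.26; edgeR adjusted p = 0.046, 0.162 unpaired). Of its 50-base words 38.4% occur in other transcripts, which leaves its level uncertain.

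The 3 complex V genes that did not pass in the paired fit were Atp5e, Atp5h and Atp5l, the epsilon, d and g subunits, at an edgeR paired adjusted p of 0.0512, 0.139 and 0.394. Their log2 differences in that fit were -0.78 ± 0.20, -0.56 ± 0.21 and -0.65 ± 0.43 (± SE). Atp5l was at 1.56 to 4.10 CPM in Tomato-positive and 3.18 to 4.10 CPM in Tomato-negative libraries. These stand for 27 to 67 counts in Tomato-positive and 50 to 70 counts in Tomato-negative libraries. Of the 50-base words of Atp5h 19.9% occur in transcripts of 18 other genes. For Atp5l it was 9.99%, in transcripts of 642 other genes, and the levels of both are uncertain.

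Isoforms within a library were set against each other as ratios of counts, which do not depend on the scaling of the library. Atp5g1 had 2.03, 2.07, 2.72 and 1.83 counts per 100 counts of Atp5g3 in the Tomato-positive libraries, against 3.19, 2.77, 3.82 and 2.85 in the Tomato-negative libraries. The Tomato-positive ratio was lower in all 4 pairs and the groups did not overlap (difference of mean log2 ratios -0.55; exact permutation test, 2-sided, p = 0.0286, the smallest this design allows, and 0.0714 adjusted over 5 ratios). Cox7a2l had 78.2, 82.0, 140.1 and 106 counts per 100 counts of Cox7a2 in the Tomato-positive libraries, against 56.6, 52.5, 72.4 and 64.5 in the Tomato-negative libraries. It was higher in all 4 pairs with no overlap (log2 0.70; exact permutation p = 0.0286, adjusted 0.0714). With 5 ratios tested neither passed after adjustment. The permutation test moved labels freely among the 4 Tomato-positive and 4 Tomato-negative libraries. It took no account of shared identifiers or prefixes, so its smallest p is that of an unpaired design. Of the 50-base words of Cox7a2l 13.8% occur in transcripts of 1 other gene, against 0% of those of Cox7a2. The ratios of Atp5g2 to Atp5g3 (log2 -0.29; exact permutation p = 0.486), Cox7a1 to Cox7a2 (0.01; p = 1) and Cox6b2 to Cox6b1 (-0.35; p = 0.457) had overlapping groups.

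**Figure D3:**
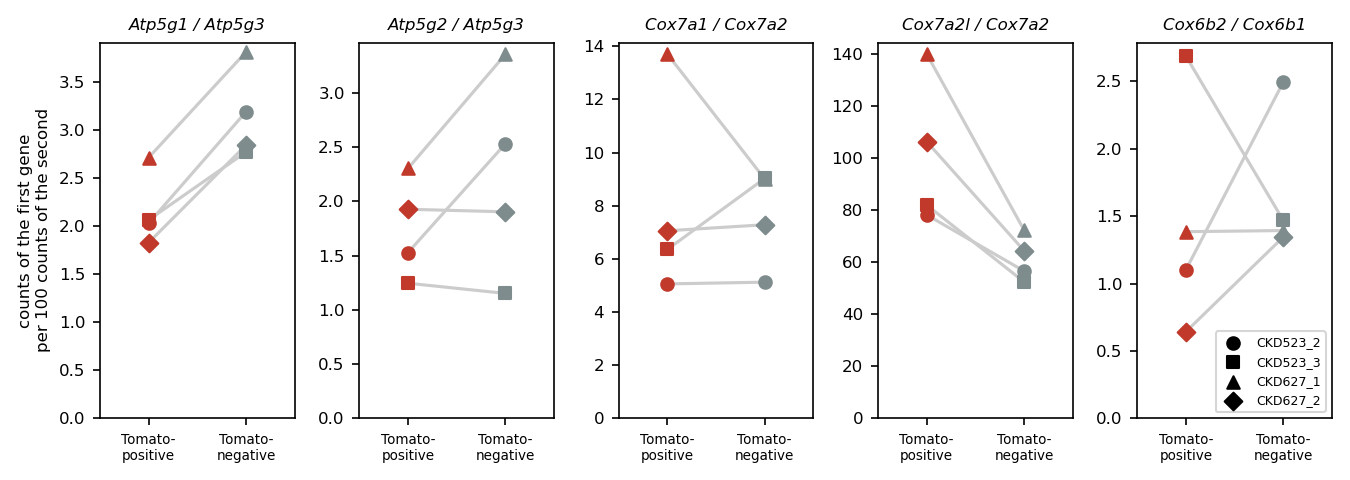
Counts of a gene per 100 counts of a related gene in each library, with Tomato-positive libraries in red on the left and Tomato-negative libraries in grey on the right, and lines joining libraries with the same identifier. The lines of Atp5g1 to Atp5g3 all run up to the Tomato-negative side and those of Cox7a2l to Cox7a2 all run down, while those of the other 3 ratios are mixed.

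The medians of the complexes were compared pair by pair. The median of the members' pair differences was -0.54, -0.82, -0.78 and -0.53 for complex II, and -0.53, -0.82, -1.03 and -0.65 for complex III. For complex IV it was -0.57, -0.81, -1.32 and -0.64, and for complex V -0.48, -0.81, -1.10 and -0.59. In pair CKD627_1 complex IV was the lowest and complex II the highest, while in pair CKD523_3 the medians of the 4 complexes lay between -0.82 and -0.81. Complex IV minus complex II averaged -0.17 ± 0.25 (SD over 4 pairs), complex IV minus complex III -0.08 ± 0.14, complex III minus complex II -0.09 ± 0.12, and complex V minus complex IV 0.09 ± 0.09. Each of these means was smaller than its SD, and no test was made between complexes, since genes of a complex are not replicates. Without pair CKD627_1 the paired medians were -0.62 for complex II, -0.67 for complex III, -0.68 for complex IV and -0.61 for complex V.

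**Figure D4:**
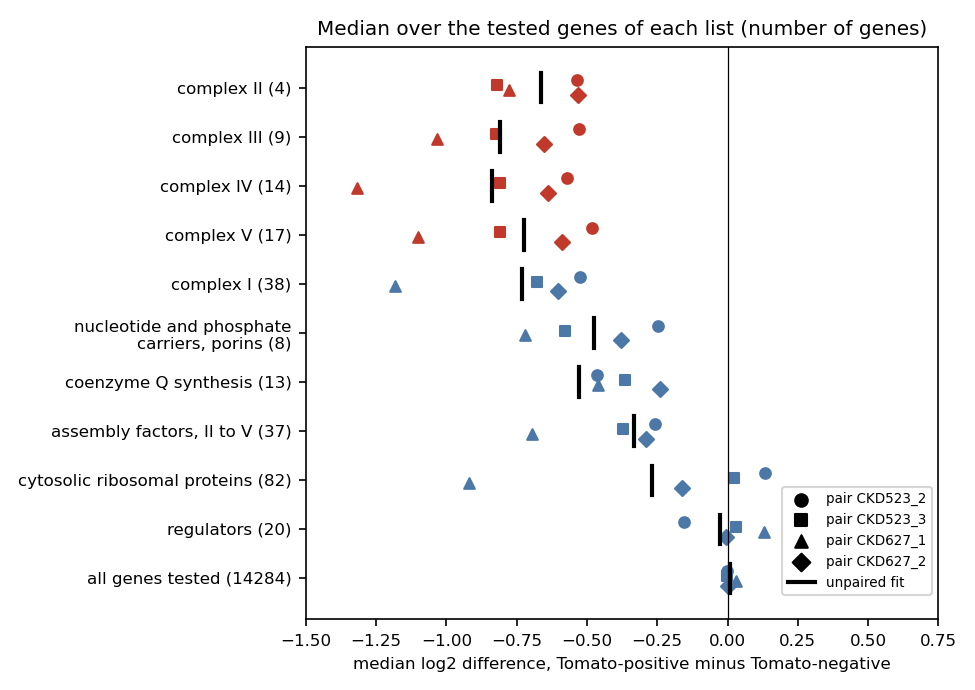
Median log2 difference over the tested genes of each list, with one symbol per pair and a black bar for the unpaired fit; the 4 complexes are in red, other lists and all tested genes in blue, with the number of genes in brackets. For the complexes every pair lies at -0.48 or below. The triangle of pair CKD627_1 lies farthest left for complexes I, III, IV and V, carriers and porins, assembly factors and ribosomal proteins.

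In edgeR no member passed in the comparisons of the prefixes of the identifiers, whose meaning the labels do not give. The median Tomato difference of the members was -0.94 in prefix CKD627 and -0.69 in prefix CKD523. The test of whether the Tomato difference itself differs between the prefixes was passed by 0 of 45 members (edgeR interaction term, where 0.014% of all tested genes passed; 1 member, Cox7c, at an unadjusted p under 0.05, where 13.2% of all tested genes lay; DESeq2 0). The level itself was compared between prefixes with the Tomato group in the fit. There 0 members were lower and 0 higher in CKD627 than in CKD523 in edgeR, where 11.4% of all tested genes were lower and 9.66% higher. At an unadjusted p under 0.05 there were 4 members, against 32.3% of all tested genes, and DESeq2 called 1 higher. The members' median difference between prefixes (CKD627 minus CKD523) was 0.02 on the log2 scale, with a range from -0.58 to 0.50. Proximal tubule markers had a median of -1.72 between the prefixes, and 16 of 19 were lower in CKD627.

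Other gene lists of the same pathway were set beside the members, with no test between lists. Over all tested genes 0.231% fell unpaired and 3.81% paired in edgeR. Without pairing DESeq2 called 3.62% of them lower and limma-voom 0.28%, and 8.98% were lower at an unadjusted p under 0.05 in edgeR. Of 38 tested genes of complex I, 6 fell unpaired and 29 paired, and 0 rose, with a median of -0.73. Among them Ndufa4, which works as a subunit of complex IV despite its name, had 227, 216, 206 and 227 CPM in the Tomato-positive libraries, against 373, 417, 454 and 347 CPM in the Tomato-negative libraries (log2 -0.86 ± 0.13; edgeR adjusted p = 0.0407, 0.011 paired). Of 37 tested assembly factors of complexes II to V, 0 fell unpaired in edgeR (DESeq2 6, limma-voom 0; 15 at an unadjusted p under 0.05) and 3 paired, and the median was -0.33. The 3 were Tmem70, which helps to build ATP synthase (paired log2 -0.77 ± 0.16; edgeR adjusted p = 0.0251), Fmc1, which is known from yeast to act in the same assembly (adjusted p = 0.0428), and Uqcc1 of complex III assembly (adjusted p = 0.0498).

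The counts that follow stand beside the same shares of all tested genes. These were 3.81% lower paired in edgeR, 3.62% lower unpaired in DESeq2, and 8.98% lower unpaired at an unadjusted p under 0.05 in edgeR. Coenzyme Q, which links complexes I and II to complex III, is made by a set of enzymes of which 13 were tested. In edgeR 0 fell unpaired (DESeq2 3, limma-voom 0; 6 at an unadjusted p under 0.05) and 3 fell paired, and the median was -0.53. The strongest was Coq9, a lipid-binding helper of the pathway (paired log2 -0.71 ± 0.14; edgeR adjusted p = 0.0226), with Coq8a (adjusted p = 0.0335) and Coq2 (adjusted p = 0.0402) after it. Of 8 carriers, porins and kinases that handle ATP, ADP and phosphate at the mitochondrial membranes, 0 fell unpaired in edgeR (DESeq2 4, limma-voom 0; 5 at an unadjusted p under 0.05) and 2 fell paired, with a median of -0.48. These were Ckmt1, the mitochondrial creatine kinase, at 34.7, 84.9, 137 and 126 CPM in the Tomato-positive libraries, against 64.5, 209.8, 334 and 266 CPM in the Tomato-negative libraries (paired log2 -1.14 ± 0.14; edgeR adjusted p = 0.00296), and Slc25a5, an exchanger of ADP and ATP (paired log2 -0.67 ± 0.13; edgeR adjusted p = 0.0198).

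The 20 regulators of nuclear respiratory genes, among them the coactivator Ppargc1a and the factors Nrf1, Gabpa and Esrra, had a median of -0.03. In edgeR 0 changed unpaired (3 lower and 1 higher at an unadjusted p under 0.05; DESeq2 1 lower and 1 higher; limma-voom 0), and 1 rose in the paired fit, where 3.82% of all tested genes rose, a share near that of 1 in 20. Paired DESeq2 called 2 lower and 1 higher. The gene that rose in edgeR was Nrip1, a corepressor of nuclear receptors that holds down oxidative genes in fat and muscle of mice. It had 145, 144, 125 and 119 CPM in the Tomato-positive libraries, against 87.2, 66.8, 46.4 and 69.7 CPM in the Tomato-negative libraries. No library of either group reached into the other (paired log2 1.01 ± 0.16; edgeR adjusted p = 0.00914, 0.0603 unpaired). Esrra, a nuclear receptor that drives respiratory genes, averaged 111 ± 16.3 CPM in Tomato-positive and 154 ± 24.7 CPM in Tomato-negative cells (SD, n = 4 each). It did not pass (paired log2 -0.48 ± 0.12, edgeR adjusted p = 0.0527, 0.181 unpaired). Its Tomato-positive libraries all lay below its Tomato-negative ones, as did those of Polrmt (paired log2 -0.43 ± 0.13, edgeR adjusted p = 0.0863). Of the 20 regulators 3 were separated in this direction and 1 in the other, against 6.48% and 6.74% of all tested genes.

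Cytosolic ribosomal proteins, another set of short and abundant transcripts, had no member past the threshold in edgeR. At an unadjusted p under 0.05 in edgeR, 8.98% of all tested genes were lower unpaired and 12.3% paired. The counts of ribosomal proteins below are near those shares. Paired DESeq2 called 7.39% of all tested genes lower. Of 82 tested genes 0 changed in edgeR in either fit (DESeq2 0 unpaired and 3 lower paired, limma-voom 0; 9 lower unpaired and 10 lower paired at an unadjusted p under 0.05), with a median of -0.27. Their sum was 9033, 8170.0, 7725 and 8018 CPM in the Tomato-positive libraries, against 8365, 8526, 14364 and 8849 CPM in the Tomato-negative libraries. The Tomato-negative library CKD627_1 stood apart from the other 7, and the pair medians were 0.13, 0.02, -0.92 and -0.16. In the pairs CKD523_2 and CKD523_3, where the ribosomal medians were above 0, those of the members were -0.53 and -0.81. The difference between the lists was not tested.

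Gene length moved with the paired difference, though not in every pair. Among tested members with an annotated length (44 of 45), the 10 with under 1 kb of exons had a median paired difference of -0.96, the 16 of 1 to 2 kb one of -0.81, the 12 of 2 to 4 kb one of -0.73 and the 6 of 4 kb or more one of -0.66. Other genes with a mean of at least 50 CPM showed the same order, with -0.54 for 73 genes under 1 kb, -0.32 for 352 genes, -0.14 for 1317 genes and 0.11 for 3047 genes of 4 kb or more. The limit of 50 CPM was not set for the members, so low genes enter their medians alone. Without it the other tested genes had -0.38, -0.28, -0.10 and 0.12, from the shortest class to the longest. In each class the members lay below the other genes, with or without that limit. Pair by pair, from the shortest class to the longest, the members' medians were -1.36, -1.33, -1.07 and -0.72 in CKD627_1, which alone kept this order. They were -0.60, -0.44, -0.56 and -0.53 in CKD523_2, -0.94, -0.70, -0.83 and -0.83 in CKD523_3, and -0.88, -0.58, -0.59 and -0.55 in CKD627_2. The class under 1 kb was the lowest in each of the 4 pairs, and the longer classes were in no set order in these other pairs. Across the 44 members the rank correlation of the paired difference with length was 0.39 (Spearman, a description over genes measured in the same libraries), and over the 36 with at least 20 CPM it was 0.45. By pair it was 0.03 in CKD523_2, 0.06 in CKD523_3, 0.42 in CKD627_1 and 0.37 in CKD627_2. The part of length in the result was not tested.

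**Figure D5:**
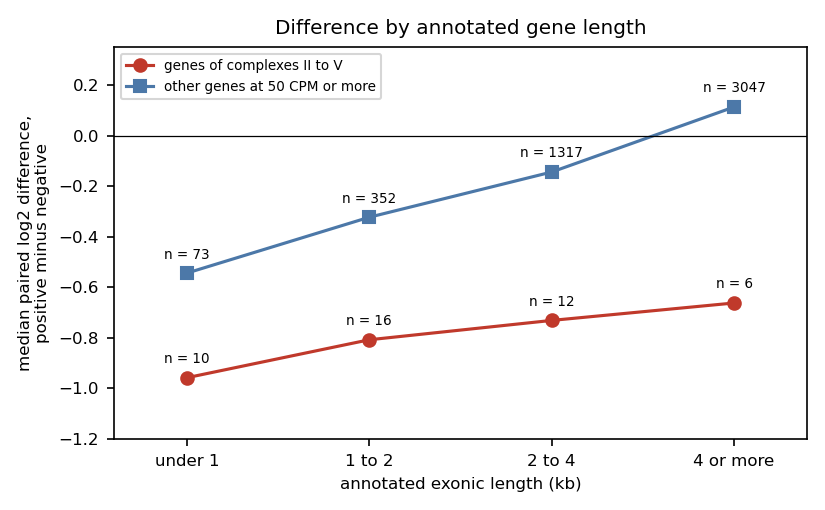
Median paired log2 difference (Tomato-positive minus Tomato-negative) by annotated exonic length, for the tested genes of complexes II to V in red and for other genes with a mean of at least 50 CPM in blue, with the number of genes beside each point. Both lines rise with length and the red line lies below the blue one in all 4 classes. The limit of 50 CPM was set for the blue line only. Among the 4 pairs taken singly, the red medians rose from class to class in CKD627_1 alone.

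Markers of other kidney cells moved with the same comparison. All 10 principal cell markers of the collecting duct rose in Tomato-positive cells in the paired fit, and their summed level was 1146 to 5508 CPM in Tomato-positive and 259 to 2423 CPM in Tomato-negative libraries. In the same fit 3.81% of all tested genes fell and 3.82% rose. Of the intercalated cell markers 6 were lower and 2 higher at an unadjusted p under 0.05 in it. In pair CKD523_2 they summed to 297 CPM in the Tomato-positive and 299 CPM in the Tomato-negative library. At the adjusted threshold in edgeR without pairing, 2 of 10 principal cell markers rose, where 0.364% of all tested genes rose. There 0 loop of Henle, distal tubule or intercalated cell markers passed. Unpaired DESeq2 called 3 principal cell markers higher, and 2 loop, 3 distal and 1 intercalated lower, against 3.62% of all tested genes lower. In the paired edgeR fit 6 of 8 loop of Henle markers, 4 of 8 distal tubule markers and 4 of 8 intercalated cell markers fell. Their sums were 1848 to 6886 CPM in Tomato-positive and 4202 to 14345 CPM in Tomato-negative libraries for the loop, 354 to 1078 CPM in Tomato-positive and 1395 to 2925 CPM in Tomato-negative libraries for the distal tubule, and 297 to 1128 CPM in Tomato-positive and 299 to 2538 CPM in Tomato-negative libraries for intercalated cells. Of the markers of endothelial cells (10 tested), fibroblasts (8) and podocytes (5) 0 changed in edgeR in either fit (paired DESeq2 0, 2 and 0; 0, 3 and 0 with an unadjusted paired p under 0.05). Of 7 tested macrophage markers 1 rose, Cd68, and 4 had a difference below 0. Among these Csf1r was lower in every Tomato-positive library than in any Tomato-negative one but did not pass in edgeR (paired log2 -1.52 ± 0.42; adjusted p = 0.0617), while paired DESeq2 called 1 marker lower and 1 higher. The sums were at most 44.8 CPM in Tomato-positive and 53.5 CPM in Tomato-negative libraries. The part of the mix of cells in the lower respiratory transcripts was not tested.

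Promoters of genes that moved together are shown for a called gene of each complex whose window held a searched motif. RefSeq windows (GRCm38.p6, 250 bases before to 50 bases after the annotated start) were found for 35 of the 45 tested members and searched on both strands for the NRF1 core GCGCATGCG, the ETS site CCGGAAG that GABP binds, and the YY1 site AAGATGGCG. The last letters of the ETS site, AAG, can also be the first of the YY1 site. Some genes had more than 1 window, and a gene was counted if any of its windows held the letters. The ETS letters were found for 13 of 35 members (37.1%), against 18.6% of the 11273 tested genes with a window. The NRF1 letters were found for 7 members (20%, against 3.79%) and the YY1 letters for 2 (5.71%, against 3.30%). The windows of the called genes Cox7a2, Atp5g1, Uqcr10 and Uqcrfs1 held none of these letters. Capitals mark the ETS letters (CTTCCGG when on the other strand) and, in Uqcr11 and Atp5k, also the NRF1 letters (CGCATGCGC when on the other strand), and each sequence runs 5′ to 3′ on the strand of its gene.
Sdhb (chr4:140961021-140961320, plus strand): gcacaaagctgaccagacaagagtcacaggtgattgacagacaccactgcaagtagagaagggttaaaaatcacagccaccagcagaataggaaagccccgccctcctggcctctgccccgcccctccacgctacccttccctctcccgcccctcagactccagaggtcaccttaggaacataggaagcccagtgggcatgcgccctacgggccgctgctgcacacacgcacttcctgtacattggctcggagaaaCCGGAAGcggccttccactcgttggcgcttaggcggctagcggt
Uqcr11 (chr10:80406772-80407071, minus strand): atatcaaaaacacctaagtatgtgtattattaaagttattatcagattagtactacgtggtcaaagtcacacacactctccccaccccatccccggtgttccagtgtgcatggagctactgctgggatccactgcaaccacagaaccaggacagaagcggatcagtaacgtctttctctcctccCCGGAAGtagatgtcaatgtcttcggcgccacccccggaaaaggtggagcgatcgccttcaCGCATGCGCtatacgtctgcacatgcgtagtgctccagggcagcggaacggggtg
Cox8a (chr19:7217567-7217866, minus strand): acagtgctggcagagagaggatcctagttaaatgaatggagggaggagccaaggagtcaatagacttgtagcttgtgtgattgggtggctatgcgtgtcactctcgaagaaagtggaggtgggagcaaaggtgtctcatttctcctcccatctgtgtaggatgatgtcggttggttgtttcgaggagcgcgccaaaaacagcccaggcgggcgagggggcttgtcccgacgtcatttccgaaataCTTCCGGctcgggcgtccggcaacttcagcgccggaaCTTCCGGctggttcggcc
Atp5k (chr5:108434350-108434649, minus strand): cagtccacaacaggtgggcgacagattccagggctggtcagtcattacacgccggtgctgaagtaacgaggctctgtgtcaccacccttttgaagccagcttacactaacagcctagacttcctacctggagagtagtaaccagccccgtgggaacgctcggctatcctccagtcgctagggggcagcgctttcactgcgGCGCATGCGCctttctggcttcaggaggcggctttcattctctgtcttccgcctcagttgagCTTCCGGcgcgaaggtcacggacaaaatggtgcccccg
Counted from the start, with no base 0, the ETS letters lay at 7 to 13 in Sdhb, at -66 to -60 (ETS) and -5 to 4 (NRF1) in Uqcr11, and at -5 to 2 and 33 to 39 in Cox8a. In Atp5k the NRF1 letters lay on both strands, overlapping between -50 and -41, and the ETS letters at 13 to 19. The log2 differences of these genes were -0.90 for Sdhb, -1.003 for Uqcr11, -0.74 for Cox8a and -1.65 for Atp5k. Their matches are a description of letters only.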

How the data were processed

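Raw read counts per gene symbol were deposited by the authors in a single table for 8 libraries. Reads were aligned with subread, per the file headers, and mm10, edgeR 3.32.1 and limma 3.46.0 are named in the submitters' processing notes. The sources used here do not give the counter, annotation, strand setting or handling of reads with several matches. Per the labels' protocols, total RNA went into a NEBNext Ultra kit.

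Genes were kept with filterByExpr (at least 10 counts in 4 libraries, 15 in all), which left 14284. Tomato-positive was compared with Tomato-negative by edgeR 4.0.16 (R 4.3.3): TMM factors, quasi-likelihood test, 2-sided, Benjamini-Hochberg adjustment over all tested genes, threshold 0.05. SE is the log2 difference over the root of F. The steps were tested on simulated data. Alternatives were DESeq2 1.42.0, limma-voom (limma 3.58.1), other scalings and filters, a prefix term, single prefixes, and leaving out each library or pair.

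Libraries with the same title identifier deviated together (correlations after removal of group means 0.46, 0.32, 0.33 and 0.47, all above the limit of 0.1), so the paired fit is given where it changes a call. Libraries of the same prefix with different identifiers correlated at 0.30 to 0.47, so this check cannot tell a shared identifier from a shared prefix. Their correlation was above that of the same identifier for CKD523_3 (0.34 against 0.32) and CKD627_1 (0.47 against 0.33). The labels do not say whether libraries came from separate animals, so p-values reflect the spread among these libraries, which may be technical. Within a group the libraries differed beyond sampling noise (chi-square over its degrees of freedom 15.5 to 191). The limit set by 3 counts allows for counting error alone, as the labels name no molecular identifiers.

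The members and gene lists were chosen with earlier results of these data known. The motif letters were chosen after the values were seen. Genes were named by rule: members past the threshold unpaired, the core subunits, the isoform sets, and the 3 members per complex and up to 3 genes per list with the smallest paired p. The exceptions are Cox7c, Cox7c-ps1, Atp5e, Atp5h, Atp5l and Slc22a7, which were named after their values were seen. Positions and lengths are from GENCODE M21 (GRCm38, the same build as mm10), where 14043 of 14284 tested symbols matched a gene.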

Additional observations from a re-analysis of the deposited data

Results flagged for a closer look

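In 6 of 90 groups of 4 libraries (the levels of each tested gene in each Tomato group), the highest or lowest library lay apart from the other 3 by a gap above Dixon's 95% critical value. Chance flags about 1 in 20 such groups. Of these, 4 were in Tomato-positive libraries. Atp5c1 was at 268.8 CPM in the Tomato-positive library CKD523_3, against 295 to 296 CPM in the other 3. Cox8a was at 324 CPM in the Tomato-positive library CKD627_1, against 349 to 352 CPM, and Cyc1 was at 225 CPM in the same library, against 251 to 255 CPM. Sdhc was at 223 CPM in the Tomato-positive library CKD523_2, against 183 to 189 CPM. In Tomato-negative libraries, Cyc1 was at 436 CPM in CKD523_3, against 368 to 378 CPM in the other 3, and Uqcrh was at 411 CPM in CKD627_1, against 233 to 259 CPM. In each of these genes every Tomato-positive library still lay below every Tomato-negative one.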

How the results depend on the processing

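Every member named by rule kept its direction under every alternative run for it. The number of members that fell, 8 in the unpaired fit, was 38 with the replicate block, 39 with the prefix as a covariate, 36 in prefix CKD523 alone, 4 with scaling by library size only, 2 with no filter on low counts and 40 with DESeq2. With the replicate block it was 36 with library size only, 39 with DESeq2's size factors and 40 in DESeq2. It was 0 to 1 without any 1 library, and with the block 20 without pair CKD523_2, 3 without CKD523_3, 37 without CKD627_1 and 7 without CKD627_2. DESeq2's size factors gave 10, a filter of 50 counts in 4 libraries 12, prefix CKD627 alone 12 and limma-voom 11. The number of all tested genes that fell, 33 in the unpaired fit, was 544 with the replicate block, 758 with the prefix as a covariate, 1188 in prefix CKD523 alone, 148 in prefix CKD627 alone, 21 with library size only, 14 with no filter, 517 with DESeq2, 37 with its size factors, 47 with the filter of 50 counts and 40 with limma-voom. With the block it was 496 with library size only, 570 with DESeq2's size factors and 1056 in DESeq2. The cause was not tested.

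The interaction count of 0 was 0 to 1 without any 1 library (1 without the Tomato-negative library CKD627_2). The count of members lower in CKD627, 0, was 0 to 1 (1 without the Tomato-negative library CKD627_1), and the count higher, 0, was 2 with library size only, 1 with no filter, 1 with DESeq2 and 0 to 1 without any 1 library. A block for the prefix itself could not be fitted, since identifiers are nested in prefixes. The medians of the complexes stayed below 0 in 25 alternatives, between -0.73 and -0.62 for complex II, -0.93 and -0.67 for III, -1.02 and -0.68 for IV and -0.89 and -0.61 for V. Leaving out libraries was added for the isoform ratios after seeing the data. The log2 ratio difference of Cox7a1 to Cox7a2, 0.01, then lay between -0.28 and 0.20, below 0 without the Tomato-negative library CKD523_2 or CKD627_2 or the Tomato-positive library CKD627_1. For genes below about 10 CPM the depth leaves wide errors.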
